A study of Mus musculus with 119 samples.

Results

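Adora1, Adora2a, P2ry1, Nt5e, Slc29a1 and Adk are 6 of the 55291 genes counted in each library, and they were chosen by name as genes of adenosine and purinergic signaling. Adora1 and Adora2a are adenosine receptors, P2ry1 is a receptor for ADP, Nt5e makes adenosine outside the cell, Slc29a1 carries adenosine through the cell membrane and Adk removes adenosine inside the cell. Messenger RNA had been sequenced from tissue punches of 5 brain regions of female and male mice, which were the amygdala (Amy), the ventral tegmental area (VTA), the prefrontal cortex (PFC), the nucleus accumbens (NAc) and the dorsal medial striatum (DMS). The mice had received Δ9-tetrahydrocannabinol (THC), the main psychoactive compound of cannabis, at 10 mg/kg, or a vehicle of ethanol, tween and saline. They received 1 intraperitoneal injection a day from postnatal day 28 to postnatal day 48, 21 in all, and all of them went through behavioral tests from postnatal day 63 before the brains were taken. The 119 libraries fell into 20 groups by region, sex and treatment, with 6 libraries in each group except for 5 in the VTA of vehicle-treated males. The labels give C57BL/6J mice of 11 weeks and call the DMS dorsolateral striatum, whereas the methods of the study give the substrain C57BL/6NCrl and the DMS, which is the name used here. Each library held 1 region of 1 mouse, so p-values within a region measure the spread between mice.

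Adenosine in the brain is made from ATP and ADP that cells release, as enzymes on the cell surface cut off the phosphates step by step, and ecto-5'-nucleotidase, the product of Nt5e, makes the last cut. The A1 receptor, encoded by Adora1, couples to inhibitory G proteins and lowers transmitter release at many synapses. The receptor encoded by Adora2a raises cAMP and is best known from the medium spiny neurons of the striatum that express the dopamine D2 receptor, and both receptors are blocked by caffeine. Adenosine leaves the extracellular space through transporters such as ENT1, the product of Slc29a1, and adenosine kinase, the product of Adk and in the adult brain mostly an enzyme of astrocytes, turns it back into AMP.

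Library depth, as summed expected counts, ran from 3090998 to 77042133 with a median of 22092612. By their medians the defining markers of the regions fitted the labels. Slc17a7, a vesicular glutamate transporter of cortical neurons, had a median of 1902 CPM (counts scaled to a library total of 1000000) in the PFC and 620 in the Amy, where it ranged from 283.5 to 1108. Ppp1r1b, a marker of medium spiny neurons, had a median of 2981 CPM in the DMS and 1180 in the NAc, and Th, which makes the precursor of dopamine, had 635 in the VTA. Single libraries departed from this, as Slc17a7, with medians of 2.74, 2.51 and 2.85 CPM in the DMS, NAc and VTA, reached 206, 115 and 127 CPM in 1 library of each. The library FTL_344 of the THC-treated females and the library FTL_356 of the THC-treated males, both from the Amy, went against their labels for sex, with 0.293 and 489 CPM of Xist and 139 and 0.371 CPM summed over Y-linked genes. Without them the regional means of the Amy were 108 ± 20.7 CPM for Adora1, 55.6 ± 42.9 CPM for Adora2a, 15.2 ± 4.85 for P2ry1, 13.6 ± 4.28 for Nt5e, 18.7 ± 2.78 for Slc29a1 and 38.3 ± 3.75 for Adk (SD, n = 22). The effects of THC on the 6 genes in the Amy are given with and without them.

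Levels are CPM after TMM normalization over all 119 libraries, with means and SDs over the 24 libraries of a region, or 23 in the VTA. Pairs of regions were compared with edgeR's quasi-likelihood test in 1 fit of all libraries, in which libraries that came from the same mouse were treated as independent because the labels do not say which they are. Calls required an FDR below 0.05 over all genes tested together with a log2 fold change of 0.4 or more in either direction. The PFC and DMS had been counted in 1 table and the NAc, Amy and VTA in another, so a difference across the tables includes any difference between them. In bulk tissue, fewer cells of a type and less RNA per cell cannot be told apart.

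Adora1 (chr1:134199223-134235431, minus strand, in GRCm38 with the annotation GENCODE M21) was highest in the PFC, at 263.4 ± 17.5 CPM (SD, n = 24). It stood at 161 ± 17.2 CPM in the DMS, at 143 ± 18.5 in the NAc, at 140 ± 11.4 in the VTA and at 108 ± 20.1 in the Amy. The lowest PFC library, at 228 CPM, lay above the highest library of any other region, at 194 CPM in the DMS. The PFC exceeded the DMS by 0.72 on the log2 scale (SE 0.04, edgeR adjusted p = 2.93e-32) and the Amy by 1.29 (SE 0.04, edgeR adjusted p = 6.47e-53). The NAc and VTA were neighbors in this order that did not differ beyond their spread, with a log2 difference of 0.03 and a 95% interval from -0.05 to 0.11.

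Adora2a (chr10:75316877-75334784, plus strand) spanned the widest range of the 6 genes, and its highest regional mean was 271.3 times its lowest. It averaged 575 ± 62.9 CPM in the DMS and 257.5 ± 45.7 in the NAc, with 53.2 ± 42.0 in the Amy. In the VTA it stood at 2.12 ± 0.52 CPM, and in the PFC at a median of 1.90 CPM with 1 library, FTL_264 of the vehicle-treated females, at 21.0. The lowest DMS library had 404 CPM and the highest NAc library 375.9, so even these neighboring regions did not overlap. The DMS exceeded the NAc by 1.16 on the log2 scale (SE 0.16, edgeR adjusted p = 1.31e-10), and the NAc exceeded the Amy by 2.32 (SE 0.17, edgeR adjusted p = 3.51e-24). The VTA and PFC were not separated, with a log2 difference of PFC minus VTA of 0.30 and a 95% interval from -0.28 to 0.87, and without FTL_264 and the shallow library FTL_371 this difference was -0.04. The Amy spread was wide, from 11.0 to 195 CPM over its 24 libraries. Drd2, the D2 receptor gene of the same striatal neurons, had a median of 264.3 CPM in the DMS, 128 for the NAc and 1.14 in the PFC, with 22.2 in the Amy, but 106 in the VTA, where dopaminergic neurons also express it and Adora2a was near its lowest.

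P2ry1 (chr3:61002795-61008982, plus strand), whose product responds to ADP, peaked in the NAc rather than the DMS. It averaged 34.8 ± 4.86 CPM in the NAc, 19.3 ± 5.41 in the DMS, 14.6 ± 5.18 in the Amy and 10.8 ± 2.45 in the VTA, against 1.19 ± 0.395 in the PFC. The NAc exceeded the DMS by 0.87 on the log2 scale (SE 0.09, edgeR adjusted p = 1.63e-14), the opposite order to that of Adora2a in the same libraries. The NAc exceeded the PFC 29.5-fold (log2 difference 4.88, SE 0.13, edgeR adjusted p = 4.86e-60). In the PFC single libraries held 11 to 46 counts of the gene, which limits the precision of its values there.

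Nt5e (chr9:88327197-88372092, plus strand) was nearly level between the DMS, at 23.4 ± 2.64 CPM, and the NAc, at 22.3 ± 4.03. It fell to 13.1 ± 4.37 CPM in the Amy, 6.03 ± 0.833 in the VTA and 2.63 ± 0.498 in the PFC. The log2 difference of DMS minus NAc was 0.07 with a 95% interval from -0.07 to 0.21. The DMS exceeded the PFC 8.98-fold (log2 difference 3.17, SE 0.09, edgeR adjusted p = 2.06e-59). P2ry1 and Nt5e were thus both lowest in the PFC, where Adora1 was highest.

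Over the 20 group means of log2 CPM, Nt5e varied together with Adora2a (Pearson r 0.935) and with P2ry1 (r 0.919), whereas Adora2a and P2ry1 were less alike (r 0.743). Adk ran against Adora2a (r -0.862) and Adora1 against P2ry1 (r -0.758). These values describe 20 points from 5 regions that share tables and depths, and carry no test. Since P2ry1 and Nt5e share the low level in the PFC, the RefSeq promoters of both are shown, from 250 bases before to 50 after the transcription start on the plus strand of GRCm38.p6, with matches to the GC box GGGCGG, on either strand, in capitals. They lie at chr3:61002535-61002834 and chr9:88327359-88327658.
P2ry1: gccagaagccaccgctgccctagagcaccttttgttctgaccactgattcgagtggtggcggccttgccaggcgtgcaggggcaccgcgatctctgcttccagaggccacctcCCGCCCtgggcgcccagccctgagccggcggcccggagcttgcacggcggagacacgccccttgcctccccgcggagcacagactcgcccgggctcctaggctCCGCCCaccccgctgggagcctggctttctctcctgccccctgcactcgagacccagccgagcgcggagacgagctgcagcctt
Nt5e: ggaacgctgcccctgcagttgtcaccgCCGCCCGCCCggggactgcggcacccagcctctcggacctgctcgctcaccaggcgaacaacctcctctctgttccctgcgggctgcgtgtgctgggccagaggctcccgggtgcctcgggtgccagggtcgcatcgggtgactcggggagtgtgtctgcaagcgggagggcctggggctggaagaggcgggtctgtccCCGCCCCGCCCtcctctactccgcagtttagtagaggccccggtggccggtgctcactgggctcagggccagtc
The P2ry1 promoter holds 2 such matches and is 70.7% G and C, and the Nt5e promoter holds 4, in overlapping pairs, and is 71% G and C. RefSeq promoters were matched for 5 of the 6 genes, all but Adora2a, and 10 of their 14 promoters hold a GC box, as do 35.7% of all 32851 promoters of the same length. Most of the 14 belong to Slc29a1 and some of those overlap, so they do not count separate genes. Neither TATAAA nor the cAMP response element TGACGTCA, each searched on both strands, occurs in any of the 14, and 13.6% and 1.79% of all promoters hold them. Each of the 5 genes with matched promoters has a GC box in at least 1 of them, so it is not particular to P2ry1 and Nt5e. Adora1, highest in the PFC, has 3 matches in 1 promoter and 0 in another, both 66% G and C. Each Adk promoter has 4 matches. A match of letters describes the window only.

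Slc29a1 (chr17:45585200-45599606, minus strand) varied less, and its highest regional mean was 1.97 times its lowest. The equilibrative transporter stood at 28.2 ± 2.65 CPM in the DMS and 27.9 ± 3.81 in the VTA, then 20.9 ± 2.18 in the NAc, followed by 18.6 ± 2.69 in the Amy and by 14.4 ± 1.33 in the PFC. The DMS and VTA did not differ beyond their spread, with a log2 difference of 0.03 and a 95% interval from -0.06 to 0.12. The DMS exceeded the PFC by 0.98 on the log2 scale (SE 0.05, edgeR adjusted p = 4.13e-39), and no library of the PFC reached the lowest of the DMS, with 16.6 against 23.3 CPM.

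Adk (chr14:21052574-21448569, plus strand) was the most even of the 6, with a ratio of 1.71 between its highest and lowest regional means. It averaged 60.6 ± 5.46 CPM in the VTA and 46.8 ± 2.78 in the PFC, and 37.6 ± 4.39 in the Amy, 36.8 ± 2.71 in the DMS and 35.4 ± 2.42 in the NAc. The VTA exceeded the PFC by 0.38 on the log2 scale (SE 0.04, edgeR adjusted p = 1.65e-17), which is under the fold required for a call, and exceeded the Amy by 0.69 (SE 0.04, edgeR adjusted p = 1.24e-34). The Amy and DMS could not be separated (DMS minus Amy -0.03 on the log2 scale, 95% interval from -0.11 to 0.04), nor could the DMS and NAc (0.06, from -0.01 to 0.13). The region in which Adk was highest was thus the one in which Adora2a had its lowest mean. By median, however, Adora2a was lower in the PFC, at 1.90 CPM against 2.08 in the VTA, and these regions were not separated.

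**Figure D1:**
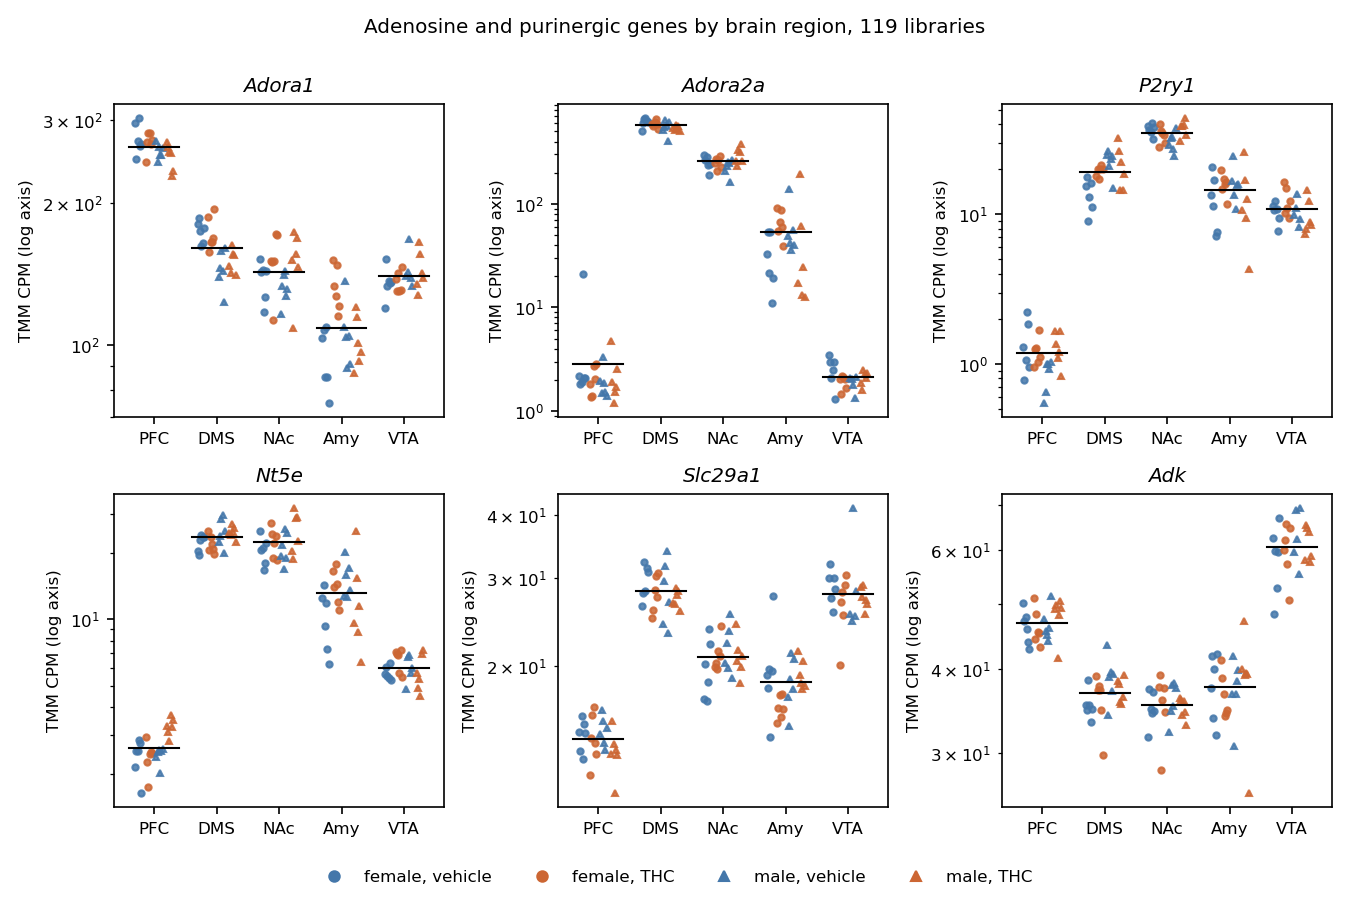
Level of each of the 6 genes in every library, in TMM-normalized CPM on a log axis, by brain region, with color for treatment, shape for sex and a bar at the mean of a region. Adora2a spans from 575 CPM in the DMS to 2.12 in the VTA, with the library at 21.0 standing alone in the PFC, while the regional means of Adk lie between 35.4 and 60.6 CPM and its single libraries between 26.2 and 69.2.

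Levels of different genes can be roughly compared per kilobase (kb) of annotated exon. The length was the union of all annotated exons of a gene, not that of the transcripts expressed, so the order of close values is uncertain. On this scale Adora2a led in the DMS with 188 CPM per kb. Adora1 had 27.8 there, Slc29a1 7.04, P2ry1 4.49, Adk 4.32 and Nt5e 2.72. In the PFC the order turned, with 45.5 CPM per kb for Adora1 and 0.928 for Adora2a. Adora2a also led in the NAc (84.1 CPM per kb, beside 24.7 for Adora1), and Adora1 in the VTA (24.2). In the Amy the 2 receptors were close, at 18.8 ± 3.48 CPM per kb for Adora1 and 17.4 ± 13.7 for Adora2a (SD). The 2 adenosine receptors thus differed in opposite directions between the PFC and the DMS.

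Of 60 tests of a member between 2 regions, 44 were called, and such calls were common among all genes. Without FTL_344 and FTL_356, Adora1 in the NAc minus Amy, at 0.41 with them, was 0.39 and lost its call, which left 43. The 6 members had 5 calls between the PFC and DMS, where 50.8% of all 18932 genes tested were called, 6 between the PFC and NAc (47.1%), 4 between the PFC and Amy (37.7%) and 4 between the PFC and VTA (56.6%). They had 3 between the DMS and NAc (33.5%), 4 between the DMS and Amy (44.9%), 4 between the DMS and VTA (58.9%) and 4 between the NAc and Amy (27.5%). They had 5 between the NAc and VTA (54.7%) and 5 between the Amy and VTA (46.3%).

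Genes whose level followed a member most closely over the 20 group means were, for Adora2a, Sh3rf2 (r 0.995), Il20ra (0.994) and Musk (0.992). For P2ry1 they were Smad5 (0.991), Firre (0.988) and Zfp462 (0.986), and for Nt5e Spata13 (0.986), Tbc1d16 (0.985) and Scube3 (0.983). Adora1 was followed by Zfp106 and Ptp4a3 (both 0.972) and Osbpl3 (0.966). Slc29a1 was followed by Ankrd13a (0.979), Gamt (0.977) and Taldo1 (0.974), and Adk by Cfl2 (0.992), Ubxn2a (0.988) and Colgalt2 (0.987). These were the 3 highest of 18932 genes for each member, as a description over 20 points that share libraries.

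The other 37 adenosine and purinergic genes, a list of receptors, ectonucleotidases, transporters, enzymes and ATP release proteins, had 32 genes with enough counts to be tested between regions. Of their 320 tests 168 were called, 15 to 23 of 32 in 9 of the pairs of regions, where 33.5% to 58.9% of all genes were, and 7 of 32 between the NAc and Amy, where 27.5% were. The VTA was the highest region for the gene of widest range in each role. Slc29a4, a transporter of monoamines and adenosine, averaged 27.7 ± 4.2 CPM in the VTA and 3.49 ± 0.633 in the DMS. Enpp1, which cuts ATP, averaged 15.5 ± 2.54 against 3.01 ± 0.606 in the PFC, and Adora2b, the low-affinity A2B receptor, 5.01 ± 0.957 against 1.78 ± 0.451 in the NAc. The ATP-gated channel gene P2rx5 (4.58 ± 1.38 against 0.107 ± 0.0693 in the DMS), the nucleotidase gene Nt5c1a (5.61 ± 0.874 against 1.72 ± 0.534 in the DMS) and the pannexin gene Panx2 (168 ± 24.0 against 57.2 ± 4.35 in the DMS) had the same highest region, as did P2ry2 at under 1 CPM. Among the 6 members the VTA was highest only for Adk.

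THC was then compared with vehicle within each region and sex, each comparison fitted on its own libraries. Of the 60 tests of a member, 1 was called, Adora1 in the female Amy, and 9 had an unadjusted p under 0.05. The absolute log2 fold change was under 0.4 in 53 of the 60 tests and had a median of 0.067. All 6 genes passed the filter on low counts in all 10 comparisons.

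**Figure D2:**
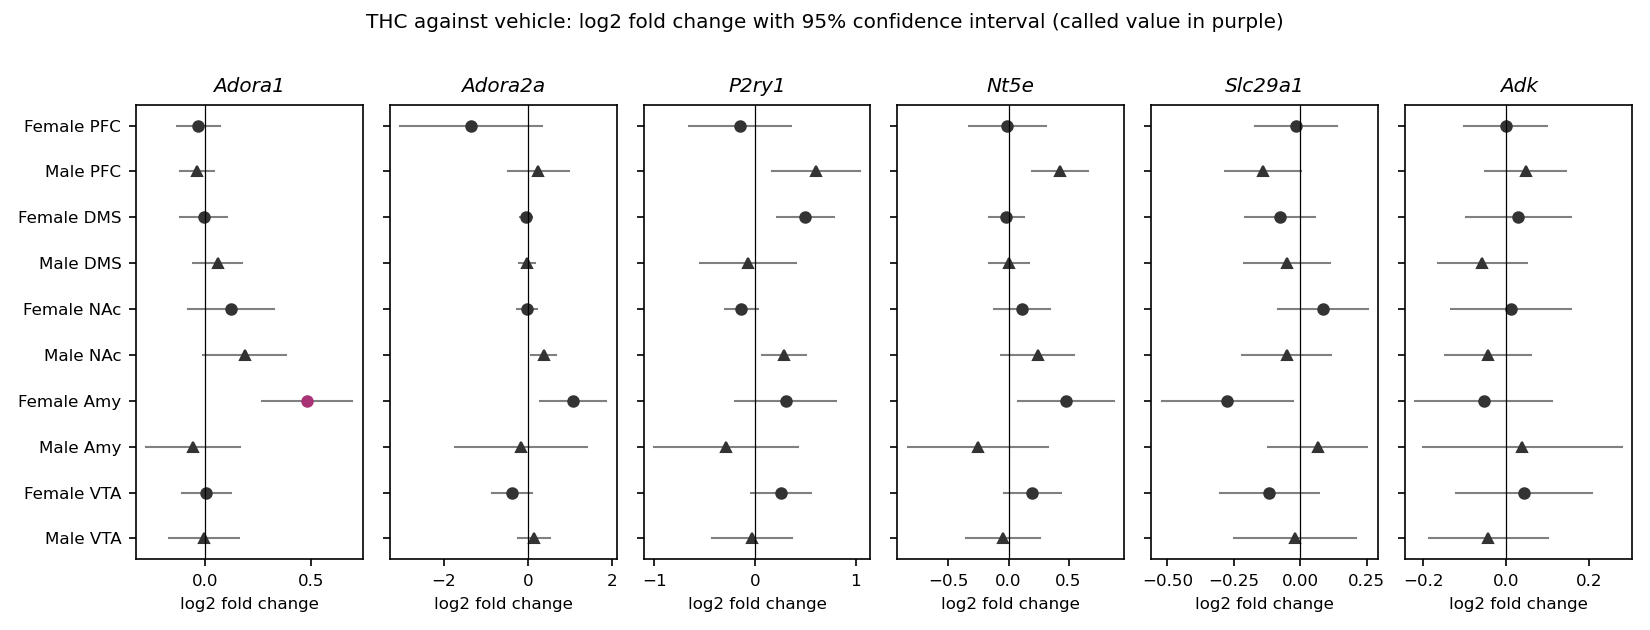
Log2 fold change of THC against vehicle for each gene (panels) in each region and sex (rows), with its 95% confidence interval and a scale of its own in each panel. The only called value, 0.48 for Adora1 in the female Amy, is in purple, and the interval of Adora2a in the female PFC is the widest, around -1.35.

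In the female Amy 1 of the 6 genes was called, where 1.57% of all 17003 genes tested were, and 4 had an unadjusted p under 0.05, where 21.9% of all genes did. Adora1 ranged from 75.0 to 109 CPM in the vehicle libraries with a median of 94.4, and from 115 to 151 CPM in the THC libraries with a median of 130. The 2 groups did not overlap, as was the case for 4.15% of the genes tested. Adora1 rose 1.40-fold with THC (log2 fold change 0.48, SE 0.10, 95% interval 0.27 to 0.70, edgeR adjusted p = 0.0258, higher in 6 of 6 THC libraries than in any vehicle library). The value without FTL_344, the THC library that went against its sex label, was 0.51 (edgeR adjusted p = 0.0418). With any 1 of the 12 libraries left out, the log2 fold change stayed between 0.42 and 0.51, and the call was lost without vehicle library FTL_335 or THC library FTL_339, FTL_340 or FTL_342, with edgeR adjusted p up to 0.0758.

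The other receptors and the ectonucleotidase were not called there. Adora2a had 11.0, 27.2 and 53.6 CPM as the lowest, median and highest vehicle library and 39.6, 63.3 and 91.4 with THC, with a log2 fold change of 1.07 (SE 0.36, edgeR adjusted p = 0.127). Nt5e had 6.26, 10.6 and 14.2 CPM with vehicle and 11.0, 14.2 and 17.8 with THC (log2 fold change 0.48, SE 0.19, edgeR adjusted p = 0.159). For both genes the groups overlapped, and the highest vehicle library exceeded the lowest THC library. The log2 fold change was 0.31 for P2ry1 (SE 0.23, edgeR adjusted p = 0.453), and it was 0.49 without vehicle library FTL_334, 0.17 without FTL_337 and 0.19 without FTL_338. Slc29a1 differed the other way, with 14.5, 19.3 and 27.6 CPM with vehicle and 15.4, 16.5 and 17.6 with THC (log2 fold change -0.27, SE 0.12, edgeR adjusted p = 0.187), and Adk had -0.05 (SE 0.08). The Slc29a1 value was -0.15 without vehicle library FTL_338. Without FTL_344 the values were 1.18 for Adora2a, 0.54 for Nt5e, 0.38 for P2ry1, -0.27 for Slc29a1 and -0.04 for Adk, again with none of them called. The median over the 6 genes was 0.39, with 4 above 0 and 2 below, beside -0.01 over all genes tested. Of the other 37 adenosine and purinergic genes, the 29 tested had a median of -0.05, with 9 above 0 and 20 below.

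Cell type markers moved with these values in the female Amy. The summed level of 5 markers of cortical and basolateral projection neurons ran from 550 to 812 CPM in the vehicle libraries and from 832 to 1167 with THC, without overlap, and 3 of the 5 were called as higher with THC. The summed level of 5 markers of medium spiny neurons ran from 520 to 922 CPM with vehicle and from 953 to 1380 with THC, again without overlap, with 0 of the 5 called and a median log2 fold change of 0.46. The sum of 5 markers of D2-type, indirect pathway medium spiny neurons overlapped, with 282.4 to 625.5 CPM and 397 to 678, as did that of 5 markers of hypothalamus and medial amygdala, which ran from 354.1 to 464 CPM with vehicle and from 235 to 360.8 with THC, with 1 of the 5 called as lower. No marker of these 4 lists was at 0 throughout a group. Of the other 8 lists, 1 marker of dopaminergic neurons was called as lower and none of the rest. All 5 oligodendrocyte markers had a log2 fold change below 0, with a median of -0.47. Their sum overlapped, with 2088 to 6877 CPM with vehicle and 2276 to 4047 with THC. The 4 leptomeninges markers (median -0.31) and the 4 dopaminergic markers tested (median -0.22) were also all below 0. In the remaining lists both directions occurred. Depth also differed, with medians of 26933795 counts with vehicle and 44472649 with THC. The part of these markers and of depth in the levels of Adora1, Adora2a and Nt5e was not tested.

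In the male Amy 0 of the 6 genes were called by edgeR or DESeq2 and 0 had an unadjusted p under 0.05, where 0% and 1.84% of all genes did. Adora1 had 89.3, 104 and 137 CPM as the lowest, median and highest vehicle library and 87.0, 98.5 and 120 with THC, so the groups lay over each other (log2 fold change -0.05, SE 0.10). Adora2a had 36.2, 45.3 and 138 CPM with vehicle and 12.5, 20.9 and 195 with THC. Its log2 fold change of -0.16 (SE 0.71) rested on single libraries, and was 0.27 without vehicle library FTL_346 and -1.23 without THC library FTL_352, both left out after their levels had been seen. In FTL_352 the sum of the 5 indirect pathway markers was 1137 CPM, against 333.7 to 586 in the other THC libraries, and the sum of the 5 markers of all medium spiny neurons was 2495, against 568 to 1038. In FTL_346 these sums were 818 against 445 to 558 and 1672 against 749 to 1008. Their part in the Adora2a level was not tested. Without FTL_356, which had the lowest Adora2a, P2ry1, Nt5e and Adk of its group and went against its sex label, the Adora2a value was 0.05, and those of Adora1, Slc29a1 and Adk were -0.03, 0.09 and 0.13. In FTL_356 the sum of projection neuron markers was higher, at 1300 CPM against 380 to 895 in the other THC libraries. Its sum of oligodendrocyte markers was lower, at 1562 CPM against 3256 to 6822. The part of these markers in its levels was not tested. Nt5e and P2ry1 had log2 fold changes of -0.26 and -0.29, which also moved with single libraries. They were -0.11 and -0.10 without FTL_356, -0.16 and -0.13 without FTL_346, and -0.57 and -0.60 without FTL_352. Depth differed in the male Amy too, with medians of 28362508 counts with vehicle and 12766415 with THC. It ran from 9663291 to 56648771 with vehicle and from 8713204 to 14939490 with THC, and its part in these values was not tested.

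Whether the effects of THC differed between the sexes was tested by the sex x treatment interaction, the male effect minus the female effect. In the Amy 0 of the 6 genes were called (0.0059% of all genes), and 3 had an unadjusted p under 0.05 (15.8% of all genes). The interaction was -0.54 on the log2 scale for Adora1 (SE 0.15, edgeR adjusted p = 0.235), -0.73 for Nt5e (SE 0.35, edgeR adjusted p = 0.312), 0.34 for Slc29a1 (SE 0.15, edgeR adjusted p = 0.288) and -1.23 for Adora2a (SE 0.82, edgeR adjusted p = 0.459). For Adora1 it was -0.55 without FTL_344 and FTL_356 (edgeR adjusted p = 0.196), and without them Nt5e had -0.66, Slc29a1 0.36 and Adora2a -1.14, with 0 of the 6 genes called. The call of Adora1 in females is thus not shown to differ from the male value. Median depth in the Amy was higher with THC in females and lower with THC in males, and its part in the interaction was not tested.

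**Figure D3:**
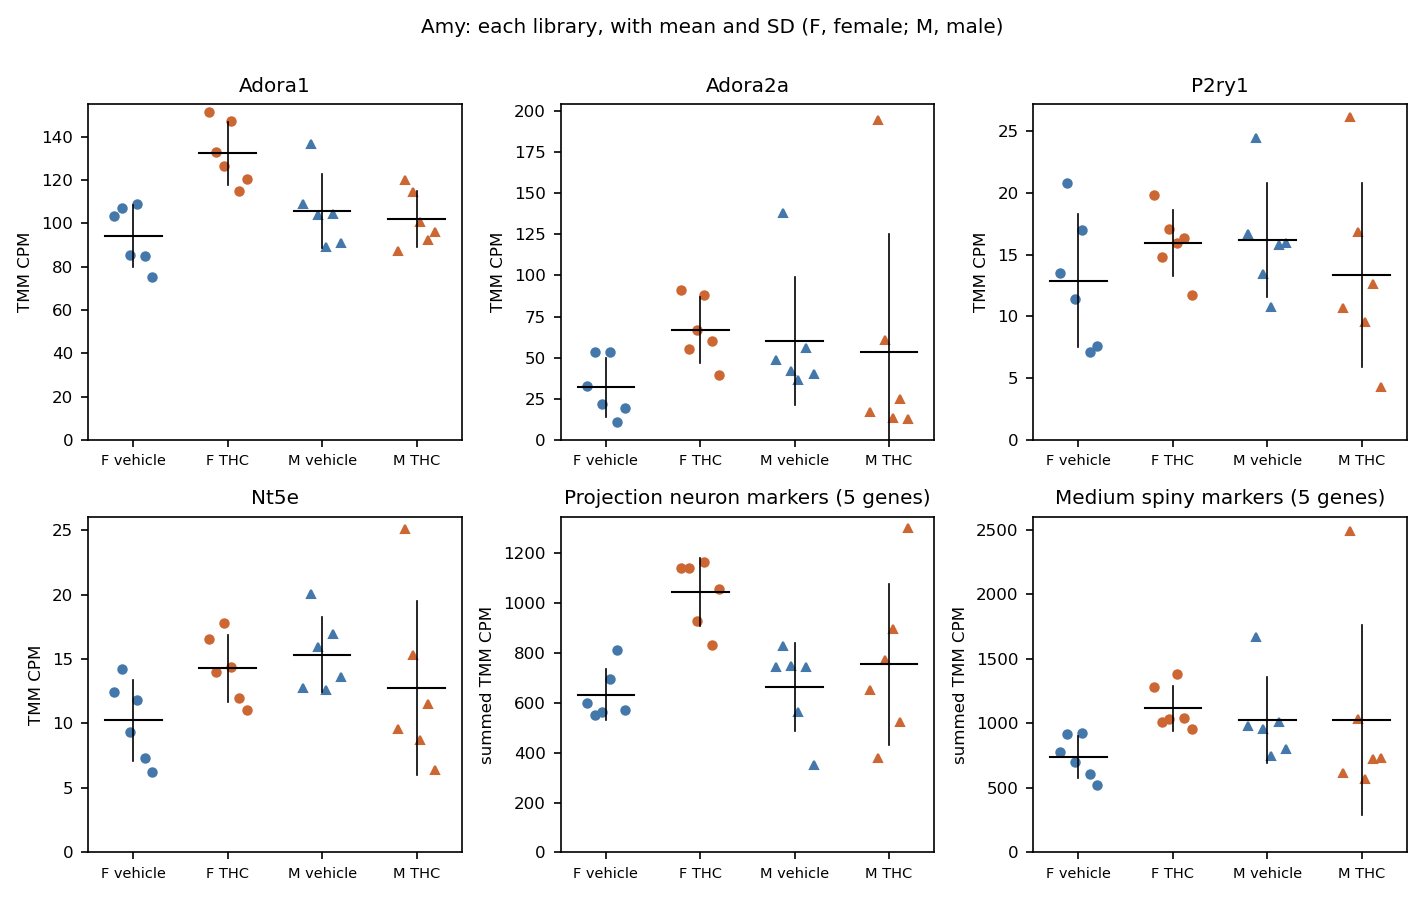
Level in each Amy library, in TMM-normalized CPM, of Adora1, Adora2a, P2ry1 and Nt5e, and the summed level of 5 markers each of projection neurons and of medium spiny neurons, with bars at the mean and 1 SD of each group (6 libraries), cut off at 0 where the SD exceeds the mean. Adora1 of the 6 female THC libraries, from 115 to 151 CPM, lies above all 6 female vehicle libraries, as do both marker sums, while in males 1 vehicle library at 138 CPM and 1 THC library at 195 CPM of Adora2a stand apart.

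In the female DMS 0 of the 6 genes were called by edgeR, where 0.0127% of all genes were, and 1 had an unadjusted p under 0.05, where 8.9% of all genes did. This was P2ry1, with 8.95, 14.3 and 17.6 CPM as the lowest, median and highest vehicle library and 17.3, 19.95 and 21.4 with THC. Only the highest vehicle library reached into the THC range. The log2 fold change was 0.50 (SE 0.13, edgeR adjusted p = 0.280), and it stayed between 0.41 and 0.58 with any 1 library left out. Vehicle library FTL_285 had a sum of 5 projection neuron markers of 276.5 CPM, against 3.90 to 4.72 in the other 5, and without it the value was 0.54 (edgeR adjusted p = 0.214). DESeq2 gave nearly the same size, 0.50, and called it with an adjusted p of 0.0325. In the male DMS, where 0% of all genes were called and 1.93% had an unadjusted p under 0.05, 0 of the 6 genes met either rule with edgeR, and DESeq2 called 0. P2ry1 had 15.0, 23.9 and 26.5 CPM there with vehicle and 14.6, 20.4 and 32.3 with THC (log2 fold change -0.07, SE 0.22). The interaction for P2ry1 was -0.56 (SE 0.26, edgeR adjusted p = 0.833), with 0 of the 6 genes called (0%) and 1 at an unadjusted p under 0.05 (5.9%). Adora2a, the member with the highest level in the DMS, moved by -0.05 in females (95% interval -0.18 to 0.09) and by -0.03 in males (-0.21 to 0.15).

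In the NAc 0 of the 6 genes were called in either sex by edgeR or DESeq2, as were 0% of all genes tested by edgeR in females and 0% in males. At an unadjusted p under 0.05 there were 0 of the 6 in females (4.61% of all genes) and 2 in males (16.7%), P2ry1 and Adora2a. P2ry1 in males had 24.5, 30.8 and 37.5 CPM as the lowest, median and highest vehicle library and 31.0, 39.0 and 43.8 with THC, and the groups overlapped (log2 fold change 0.29, SE 0.10, edgeR adjusted p = 0.216). Adora2a in males had 162, 241 and 266.6 CPM with vehicle and 235, 286.6 and 375.9 with THC (log2 fold change 0.37, SE 0.14, edgeR adjusted p = 0.226). The sum of the 5 markers of all medium spiny neurons moved the same way, from 2921 to 4205 CPM with vehicle and from 3815 to 5933 with THC, as did the 5 indirect pathway markers, from 811 to 1295 and from 1186 to 1677. The other way went the sum of 4 thalamus markers, from 70.0 to 109 CPM with vehicle and from 46.1 to 82.2 with THC, and the sum of 5 projection neuron markers, from 7.51 to 108 and from 2.24 to 14.9. Of the 10 markers of all medium spiny neurons and of the indirect pathway, 0 were called and 10 had a fold change above 0. All 4 direct pathway markers were above 0 too (median log2 fold change 0.30). Below 0 were all 5 oligodendrocyte markers (median -0.21), the 4 hypothalamus and medial amygdala markers tested (-0.40) and the 3 leptomeninges markers tested (-0.10). In the other lists both directions occurred. The part of all these markers in the levels of P2ry1 and Adora2a was not tested. In females the log2 fold changes were -0.13 for P2ry1 (SE 0.08) and -0.02 for Adora2a (SE 0.11). The interaction was called for 0 of the 6 genes (0% of all genes) and had an unadjusted p under 0.05 for 2 (11%), with 0.43 for P2ry1 (SE 0.14, edgeR adjusted p = 0.384) and 0.39 for Adora2a (SE 0.18, edgeR adjusted p = 0.443).

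In the male PFC 0 of the 6 genes were called by edgeR or DESeq2 (0% of all genes by edgeR), and 2 had an unadjusted p under 0.05 (4.07%), both of them low in this region. Nt5e had 2.01, 2.52 and 2.60 CPM as the lowest, median and highest vehicle library and 2.82, 3.26 and 3.67 with THC. The groups did not overlap, which was so for 0.188% of all genes tested. The log2 fold change was 0.43 (SE 0.11, 95% interval 0.19 to 0.66), from 48 to 58 counts a library with vehicle and 57 to 85 with THC, and it was not significant over all genes (edgeR adjusted p = 1.00). P2ry1 had 0.547, 0.958 and 1.02 CPM with vehicle and 0.834, 1.28 and 1.67 with THC, which overlapped (log2 fold change 0.61, SE 0.21, edgeR adjusted p = 1.00). The sum of 4 leptomeninges markers ran from 4.27 to 8.55 CPM with vehicle and from 5.99 to 19.0 with THC. All 4 were above 0 (median log2 fold change 0.53), as were all 6 astrocyte markers (0.04). All 5 oligodendrocyte markers were below 0 (-0.06). The part of these markers in the levels of Nt5e and P2ry1 was not tested.

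In the female PFC 0 of the 6 genes were called by edgeR or DESeq2 and 0 had an unadjusted p under 0.05 (0% and 5.84% of all genes). Nt5e had a log2 fold change of -0.01 (SE 0.15) and P2ry1 of -0.15 (SE 0.24). The interaction in the PFC was called for 0 of the 6 genes (0%) and had an unadjusted p under 0.05 for 2 (5.87%), with 0.43 for Nt5e (SE 0.18) and 0.75 for P2ry1 (SE 0.33), both at an edgeR adjusted p of 0.834. Adora2a in females had 1.80 to 2.15 CPM in 5 vehicle libraries and 21.0 in FTL_264, and 1.35 to 2.83 with THC. Its log2 fold change of -1.35 (SE 0.76, edgeR adjusted p = 0.886) was 0.02 without FTL_264, chosen for its level. In FTL_264 the sum of the 5 indirect pathway markers was 115 CPM against 35.0 to 43.9 in the other 5 libraries, that of all medium spiny neurons 781 against 403 to 455, and that of 5 oligodendrocyte markers 4118 against 1613 to 3477. Their part in the Adora2a level was not tested.

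**Figure D4:**
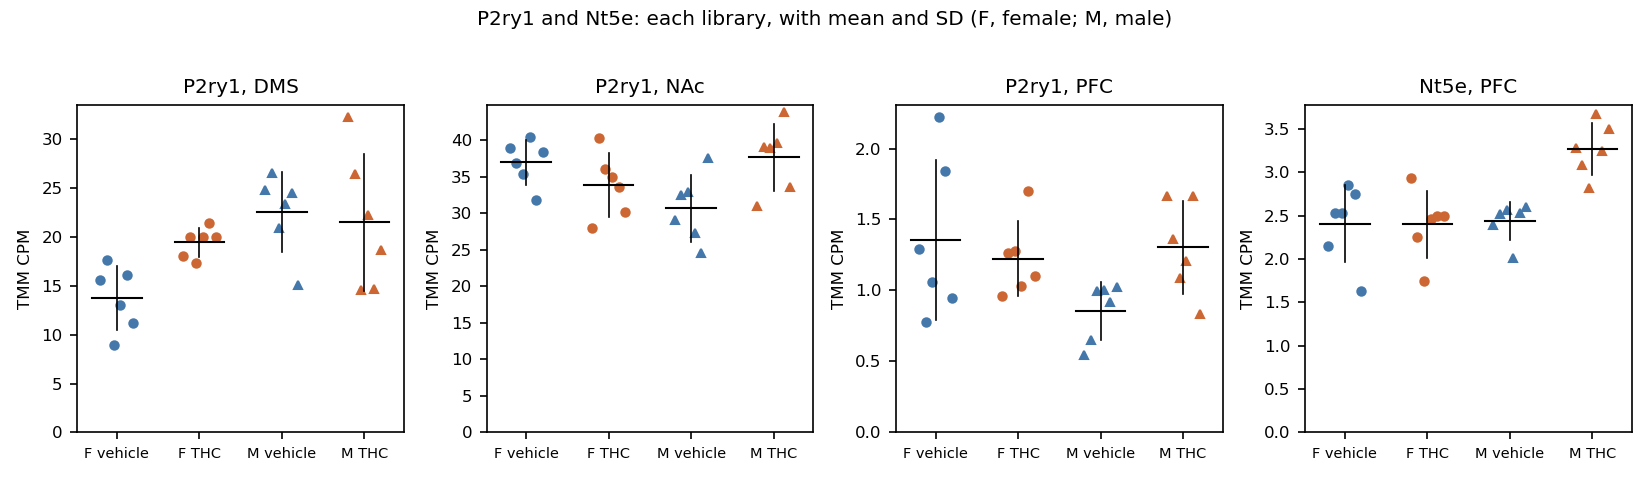
Level in each library, in TMM-normalized CPM, of P2ry1 in the DMS, NAc and PFC and of Nt5e in the PFC, with bars at the mean and 1 SD of each group (6 libraries). P2ry1 of the female DMS lies at 17.3 to 21.4 CPM with THC against 8.95 to 17.6 with vehicle, and Nt5e of the male PFC at 2.82 to 3.67 against 2.01 to 2.60.

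In the VTA 0 of the 6 genes were called in either sex by edgeR or DESeq2, and 0 had an unadjusted p under 0.05, where 0% of all genes were called in females and 0% in males and 9.02% and 5.92% had such a p. The interaction also gave 0 calls (0%) and 0 genes at an unadjusted p under 0.05 (6.16%). Adk, highest in this region, had a log2 fold change of 0.04 in females (95% interval -0.12 to 0.21) and -0.04 in males (-0.19 to 0.10). Slc29a1 had 25.6, 29.2 and 31.9 CPM as the lowest, median and highest female vehicle library and 20.1, 27.5 and 30.3 with THC (log2 fold change -0.12, SE 0.09, edgeR adjusted p = 0.690). In males the vehicle library of least depth, FTL_371 with 3090998 counts, had 41.2 CPM of Slc29a1 against 24.6 to 28.1 in the other 4 and 25.4 to 29.0 with THC. The male log2 fold change was -0.02 with FTL_371 and 0.09 without it.

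Across the 10 comparisons Adk moved least, between -0.06 and 0.05 on the log2 scale. Slc29a1 was below 0 in 8 of the 10, between -0.27 and 0.08, with no call. Adora1 ranged from -0.05 to 0.48, and every value other than that of the female Amy was at or under 0.19, the value of the male NAc (edgeR adjusted p = 0.318). Nt5e ranged from -0.26 to 0.48, P2ry1 from -0.29 to 0.61 and Adora2a from -1.35 to 1.07, where the value of -1.35 rested on FTL_264. The lowest values of Nt5e and P2ry1 were those of the male Amy, which moved with single libraries as given above.

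Of the other 37 adenosine and purinergic genes, 25 to 30 could be tested in a comparison of THC with vehicle. Over the 10 comparisons 0 were called by edgeR or DESeq2, and 25 results had an unadjusted p under 0.05. In each of 5 comparisons there were 0 to 2 such results. These were 2 of 27 in the male PFC (4.07% of all genes) and 2 of 30 in the male VTA (5.92%). The female NAc had 1 of 28 (4.61%), the male DMS 1 of 25 (1.93%) and the male Amy 0 of 26 (1.84%). There were 5 of 26 in the female DMS, where 8.9% of all genes had such a p, 5 of 29 in the female Amy (21.9%) and 3 of 26 in the male NAc (16.7%). There were 3 of 27 in the female PFC (5.84%) and 3 of 29 in the female VTA (9.02%). The gene of smallest p in the female Amy was Entpd2, an ectonucleotidase that turns ATP into ADP, with 10.7, 14.8 and 16.7 CPM as the lowest, median and highest vehicle library and 9.85, 11.2 and 13.7 with THC (log2 fold change -0.33, SE 0.11, edgeR adjusted p = 0.103). In the female DMS it was Entpd1, which turns ATP and ADP into AMP, with 16.4, 17.4 and 19.6 CPM with vehicle and 13.2, 15.2 and 16.4 with THC (log2 fold change -0.23, SE 0.07, edgeR adjusted p = 0.280). In that region P2ry1 had the log2 fold change of 0.50 given above. Neither gene passed edgeR's FDR, and a link between them was not tested. P2ry12, a microglial ADP receptor, led in the female VTA at -0.30 (SE 0.11, edgeR adjusted p = 0.512). There the sum of 6 microglia markers ran from 285.9 to 364.2 CPM with vehicle and from 222 to 322.1 with THC, and that of 6 astrocyte markers had medians of 2959 and 2188, and their part in the P2ry12 level was not tested. Slc29a4 led in the male VTA at -0.32 (SE 0.11, edgeR adjusted p = 0.819). In the remaining comparisons the leading genes moved by at most 0.25. The interaction gave 0 calls by edgeR in 142 tests of these genes, with 10 at an unadjusted p under 0.05, which were 3 of 28 in the PFC (5.87% of all genes), 4 of 27 in the DMS (5.9%), 2 of 29 in the NAc (11%), 1 of 29 in the Amy (15.8%) and 0 of 29 in the VTA (6.16%).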

How the data were processed

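RNA of tissue punches of 5 brain regions was sequenced as 119 libraries. Per the labels and methods, the authors enriched polyadenylated RNA for stranded libraries, trimmed reads with cutadapt 2.9, aligned them to mm10 with STAR 2.7.3a and counted genes with RSEM 1.3.1. The deposited values are RSEM expected counts, without normalization, in 1 table of the PFC and DMS libraries and another of the remaining regions, of which 2.80% to 6.91% in a library were not whole. There were 0 unused columns of library values. RSEM divides reads that fit several genes among them.

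Groups came from the sample titles. Expected counts were rounded and fitted with edgeR 4.0.16 in R 4.3.3 (filterByExpr, TMM, robust quasi-likelihood F test), with Benjamini-Hochberg adjustment over all genes tested and calls at an FDR below 0.05 with a log2 fold change of 0.4 or more in either direction. Comparisons of THC with vehicle used the libraries of 1 region and sex, the interaction those of 1 region, and pairs of regions all 119. Log2 CPM used a prior count of 2. Scripts were tested on simulated data. Alternatives were DESeq2 1.42.0, edgeR with its size factors or without a filter, 1 fit of the 4 groups of a region, libraries left out, vehicle libraries only, an unadjusted p and plain CPM. Depth, from 3090998 to 77042133 counts, and groups of 5 or 6 limit the changes that can be found.

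The members, the list of 37 other genes and the marker lists were chosen with earlier results of these data known. All 6 members are named. Of the other genes, those called with THC were to be named or else the one of smallest p, and for regions the gene of widest range in each role. Likeness to a member is Pearson's r over 20 group means, with the 3 highest named. Markers are given as sums of lists and as the defining genes of regions. Promoters are from RefSeq on GRCm38.p6. No paper value or comparison column was used.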

Additional observations from a re-analysis of the deposited data

Results flagged for a closer look

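In 8 of 120 sets, each of 1 gene in 1 group, a single library lay far from the others by Dixon's ratio, and chance alone marks about 1 set in 20. Of these sets 4 were of Adora2a. Its level was 21.0 CPM in library FTL_264 of the vehicle-treated female PFC (others 1.80 to 2.15), 3.33 in FTL_275 of the vehicle-treated male PFC (others 1.39 to 1.94), 138 in FTL_346 of the vehicle-treated male Amy (others 36.2 to 56.0) and 195 in FTL_352 of the THC-treated male Amy (others 12.5 to 60.4). The shallowest library, FTL_371 of the vehicle-treated male VTA, stood apart in Slc29a1, with 41.2 CPM (others 24.6 to 28.1), and in Adora1, with 167 CPM (others 133 to 143). Marker sums in FTL_371 departed in both directions. Lower were those of 5 dopaminergic markers, at 1366 CPM against 3087 to 3979, and of 5 oligodendrocyte markers, at 9451 against 12751 to 17789. The sum of 5 hypothalamus and medial amygdala markers was higher, at 296.7 CPM against 117 to 133. That of 4 thalamus markers was 438 CPM against 249 to 326.5. Indirect pathway and microglia sums were also lower, and direct pathway, projection neuron and leptomeninges sums higher. The part of depth and of these markers was not tested. Nt5e was 2.01 CPM in FTL_276 of the vehicle-treated male PFC (others 2.39 to 2.60), the group that did not overlap with THC. Adk was 41.6 CPM in FTL_281 of the THC-treated male PFC (others 48.1 to 50.5).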

How the results depend on the processing

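The count of member calls with THC, 1 of 60, was 2 with DESeq2 and 9 at an unadjusted p under 0.05, and between 0 and 1 with single libraries left out, where Adora1 in the female Amy lost its call in 4 of 12 fits. Size factors, no filter and 1 fit of 4 groups kept it at 1. Member calls between regions numbered 43 or 44 in every setting. Member calls of the interaction and THC calls of the other 37 genes stayed at 0. Of 60 regional levels 2 moved by over 1 SD, in the PFC with plain CPM, to 243 CPM for Adora1 (263.4 with TMM) and 43.2 for Adk (46.8). Of all genes in the female Amy, edgeR called 1.57% of 17003, 126 genes with all 4 groups in 1 fit, and DESeq2 called 544. The edgeR count there fell to 56 without FTL_342, 58 without FTL_339, 60 without FTL_335, 74 without FTL_340, 129 without FTL_333 and 159 without FTL_344. DESeq2 called 24 in the female DMS (2 by edgeR, 4 with no filter, 5 with 4 groups in 1 fit and 0 to 7 with single libraries left out) and 28 for the interaction in the Amy (1 by edgeR). No paired analysis was possible because the labels number each library once and do not name the mouse.

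Directions turned for the following values. Adk in the female PFC became 0.000200 with no filter. Nt5e in the male DMS became 0.00275 with size factors, 0.00271 with DESeq2 and 0.0043 with 4 groups in 1 fit. Adora1 in the male VTA became 0.00623 with no filter and 0.000774 with DESeq2. Between regions, Adora2a in the PFC minus VTA became -0.0445 without FTL_264 and FTL_371, Adk in the DMS minus Amy 0.0357 and Adora1 in the NAc minus VTA -0.0195 with vehicle libraries only. In the female PFC without FTL_264, values became 0.00276 for Adora1, 0.0161 for Adora2a, 0.0479 for Nt5e and 0.0484 for P2ry1. With single libraries left out, ranges included 0 in the female DMS for Adora1 (-0.0361 to 0.0174) and Nt5e (-0.0616 to 0.0132), in the male Amy for Adk (-0.0304 to 0.133), Adora1 (-0.108 to 0.0336) and Adora2a (-1.23 to 0.27), and in the male VTA for Adora1 (-0.0440 to 0.0603), Nt5e (-0.117 to 0.0178), P2ry1 (-0.167 to 0.0502) and Slc29a1 (-0.0728 to 0.0874). The causes were not tested. Fits without FTL_264, FTL_346 or FTL_352, and the regional fit without FTL_371, were added after seeing the data.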
